A study of Macaca fascicularis with 12 samples.

Results

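The transcripts of 9 steroid hormone genes were followed in iliac arteries of cynomolgus monkeys (Macaca fascicularis) that differed in atherosclerotic plaque. They comprised 4 receptors (ESR1, ESR2, PGR and NR3C1), the receptor corepressor NRIP1, and 4 enzymes that convert steroid hormones (HSD17B2, CYP19A1, STS and HSD11B1). The genes were chosen by name, and every probe whose only gene symbol in the array's annotation was one of the 9 was taken. This gave 17 probes of the 54359 on the array, of which 9 belonged to receptors, 2 to the corepressor and 6 to enzymes. All 17 had values on all 12 arrays, so no probe was lost to a filter. The arteries came from 12 females, 1 artery and 1 array per animal. There were 5 arteries with medium plaque (0.30 to 0.542 mm2), 3 with large plaque (0.61 to 1.003 mm2) and 4 with small plaque (0 to 0.113 mm2), of which 2 had no plaque. All animals were over 20 years old, had eaten a high fat diet for 8 years and had been without ovaries for 4 years, and none received a treatment. The series holds no animals with ovaries and none on another diet, so neither condition can be set against a control. The labels do not say how much of a biopsy was plaque, so each value is that of the whole artery piece.

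Steroid hormones bind receptors that act as transcription factors. ESR1 and ESR2 encode oestrogen receptors alpha and beta, PGR the progesterone receptor, itself a classical gene induced by oestrogen through ESR1, and NR3C1 the glucocorticoid receptor. NRIP1 encodes a protein that docks on hormone-bound nuclear receptors and represses their targets. After removal of the ovaries, oestrogen comes from conversion in other tissues. CYP19A1 is aromatase, which makes oestrogens from androgens, STS frees steroids from their sulfates, and HSD17B2 oxidises oestradiol to the weaker oestrone. HSD11B1 regenerates active cortisol from cortisone.

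Intensities are the deposited linear values, with array medians of 1.004 to 1.008. The arrays held 53832 to 53867 values each and correlated across probes with r between 0.918 and 0.972. Because human probes were hybridized with monkey RNA and may mismatch it, a probe was compared only with itself between animals. A floor of 0.111, under which 5% of positive values lay, replaced lower values before log2. Differences are in log2 units with the standard error (SE) of a limma fit over all 12 arrays. Adjusted p-values are by Benjamini-Hochberg over 53877 probes, and a probe was called at an adjusted p under 0.05. Medium and large arteries were tested separately against small arteries, and also together, as the mean of both group means. In this last comparison n was 8 against 4. It was chosen with earlier results of these data known, in which medium and large arteries were not called apart. Because the tissue is bulk, fewer cells of a type and less RNA per cell cannot be told apart. The artery markers ACTA2 and MYH11, which encode contractile proteins of smooth muscle, were above the floor on all 12 arrays.

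ESR1, on its only probe, had intensities of 13.4, 24.0, 22.1, 9.93 and 23.1 in medium arteries and 21.2, 25.0 and 18.3 in large arteries, against 42.9, 53.4, 32.3 and 46.6 in small arteries. All 8 arteries with medium or large plaque lay below all 4 with small plaque. Of all probes with 12 values, 5.16% were separated in this way in one direction or the other. ESR1 fell by 1.30 ± 0.28 log2 units in medium arteries (SE, n = 5 and 4; limma adjusted p = 0.026). In both groups together it fell by 1.16 ± 0.25 (limma adjusted p = 0.027), an intensity 2.23 times lower. In large arteries the difference was -1.02 ± 0.31 (n = 3 and 4; limma adjusted p = 0.138) and was not called. The 2 lowest values belonged to medium replicates 4 and 1, and the other 6 medium and large arteries held together between 18.3 and 25.0. The call over both groups was lost without large replicate 1 or 3, or small replicate 1, 2 or 4, with estimates of -1.16 to -1.06 and limma adjusted p-values of 0.0512 to 0.0863. In medium against small it was lost without medium replicate 1 or small replicate 1, 2 or 4, with limma adjusted p-values of 0.0536 to 0.0783.

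PGR was measured by 3 probes. The brightest, probe 404098, had intensities of 11.7, 22.0, 21.6, 10.8 and 13.0 in medium arteries and 17.4, 41.6 and 14.5 in large arteries, against 65.6, 47.2, 44.4 and 48.9 in small arteries. The groups did not overlap, although large replicate 2, at 41.6, came close to the small arteries. PGR fell by 1.76 ± 0.33 in medium arteries (limma adjusted p = 0.0145). In both groups together it fell by 1.49 ± 0.30 (limma adjusted p = 0.0186), 2.80 times lower. In large arteries it differed by -1.22 ± 0.37 (limma adjusted p = 0.133). The call over both groups was lost without large replicate 1 or small replicate 2, at limma adjusted p-values of 0.0505 and 0.0512. The call in medium arteries held without any 1 artery but was lost without both small replicate 4 and medium replicate 5 (limma adjusted p = 0.0685).

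Probe 242013 for PGR ranged from 1.72 to 3.19 in the 8 arteries with medium or large plaque, against 3.77 to 4.75 in small arteries, again without overlap. It fell by 0.97 ± 0.20 in medium arteries (limma adjusted p = 0.0232) and fell by 0.95 ± 0.18 in both groups together (limma adjusted p = 0.0149). In large arteries it stood at -0.93 ± 0.23 (limma adjusted p = 0.0701). Probe 412093 ranged from 1.12 to 5.26 in arteries with medium or large plaque, against 2.50 to 6.05 in small arteries. Here the groups overlapped, and its difference of -0.96 ± 0.37 was not called (limma adjusted p = 0.175). Large replicate 2 was the highest of the 8 medium and large arteries on all 3 probes.

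NR3C1, on its bright probe 388090, had 11.7, 12.2, 14.5, 14.3 and 12.4 in medium arteries and 13.1, 12.1 and 12.2 in large arteries, against 16.0, 20.5, 27.0 and 13.7 in small arteries. The 8 medium and large arteries formed a narrow band, with an SD of 0.12 log2 units against 0.43 in small arteries. Only small replicate 4 fell within this band. The difference was -0.56 ± 0.18 and was not called (limma adjusted p = 0.106), with a 95% interval of -0.94 to -0.17. An exact permutation test, 8 arteries against 4, was run on each of the 17 probes. For this probe it gave a two-sided p of 0.00606, unadjusted, where the smallest possible p was 0.00202. The share of all probes reaching such a p was not computed, so this value does not stand as a call. The dim probe 324096 of NR3C1 differed by -0.82 ± 0.33 (limma adjusted p = 0.181), with 1 medium array at the floor.

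ESR2, on its brightest probe, ranged from 3.83 to 5.58 in arteries with medium or large plaque, against 4.04 to 9.28 in small arteries, where small replicate 3 alone was above 6. The difference was -0.32 ± 0.21 (limma adjusted p = 0.411), with a 95% interval of -0.77 to 0.12. Probe 340070 differed by -0.08 ± 0.14, with an interval of -0.38 to 0.21. The third ESR2 probe had values at the floor on 4 of the 12 arrays and differed by -0.24 ± 0.41.

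**Figure D1:**
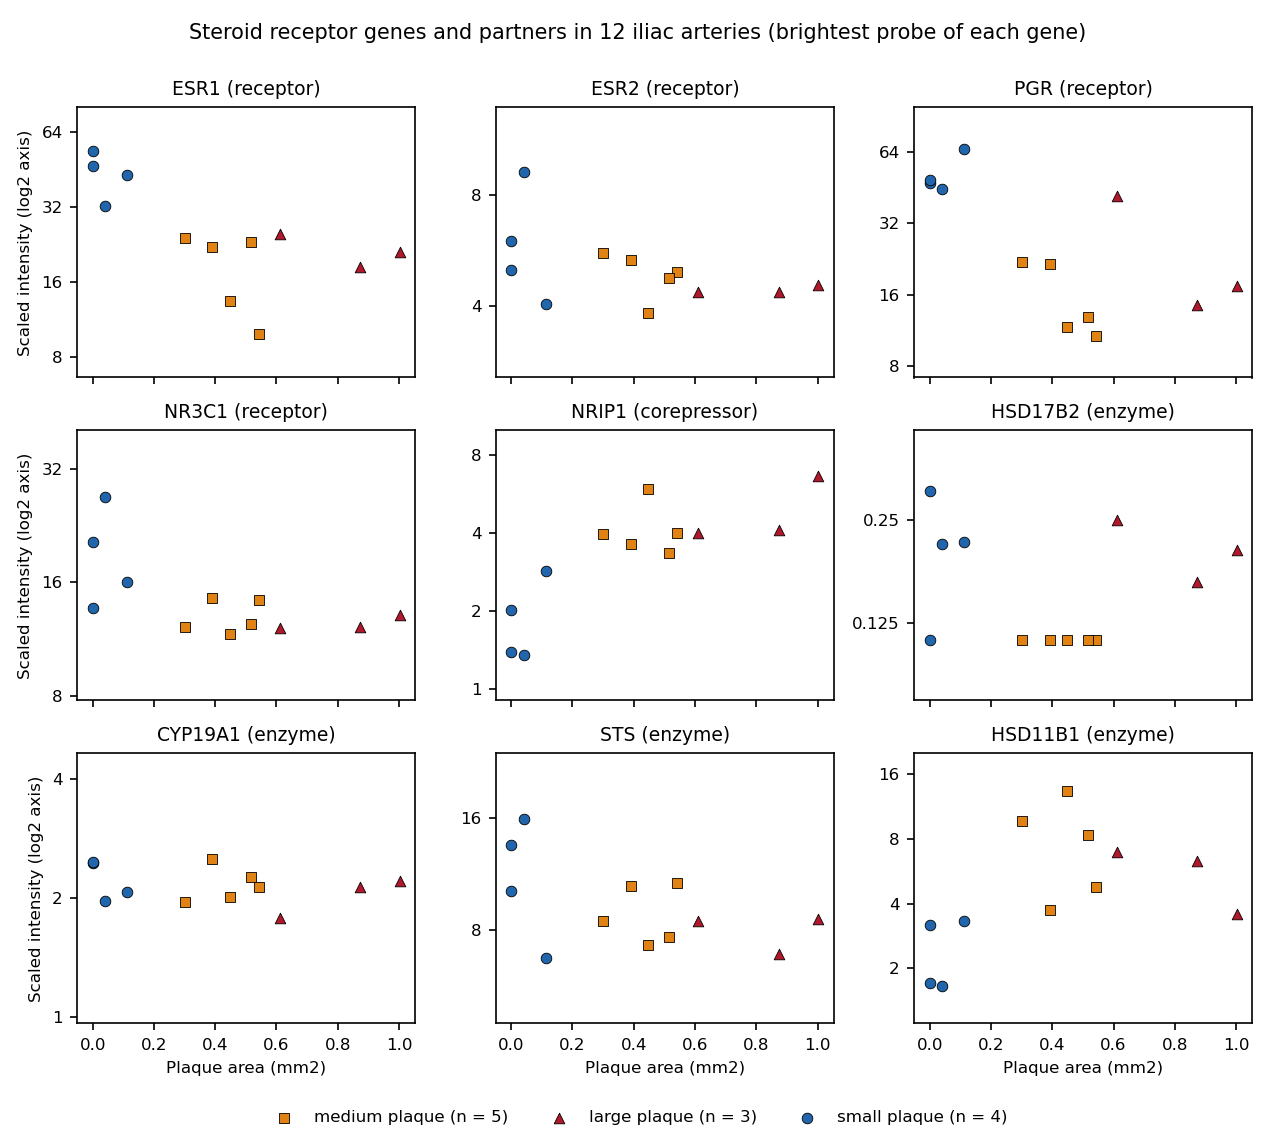
Intensity of the brightest probe of each of the 9 genes (log2 axis, scaled units) against plaque area in mm2, 1 point per artery, with medium, large and small groups marked; values under 0.111 are drawn at 0.111. ESR1 and PGR were lower, and NRIP1 and HSD11B1 higher, in all 8 arteries with medium or large plaque than in all 4 with small plaque.

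NRIP1 moved the other way. Its bright probe 20069 had 5.92, 3.96, 3.60, 3.98 and 3.35 in medium arteries and 6.63, 3.99 and 4.09 in large arteries, against 2.84, 2.00, 1.35 and 1.38 in small arteries. The groups did not overlap, and large replicate 1 and medium replicate 1 stood above the other arteries. NRIP1 rose by 1.18 ± 0.26 in medium arteries (limma adjusted p = 0.0339), by 1.40 ± 0.30 in large arteries (limma adjusted p = 0.0486) and by 1.29 ± 0.24 in both together (limma adjusted p = 0.0135), 2.44 times higher. The call over both groups held without any 1 artery. The call in medium arteries was lost in 7 of the 12 fits that left out 1 artery (medium replicates 1, 2, 4 and 5; small replicates 2, 3 and 4), at limma adjusted p-values up to 0.0784. The call in large arteries was lost in 10 of them, all but those without medium replicate 1 or small replicate 1, at limma adjusted p-values up to 0.221. The dim probe 466111 of NRIP1, between 0.181 and 0.618 on all arrays, differed by -0.30 ± 0.30 (limma adjusted p = 0.632).

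Among the enzymes, HSD11B1 was the one whose probe was called. Probe 187073 had 13.4, 9.67, 3.72, 4.77 and 8.30 in medium arteries and 3.58, 6.96 and 6.30 in large arteries, against 3.30, 3.18, 1.66 and 1.70 in small arteries. The groups did not overlap, but the gap was small, and the 8 medium and large arteries spread 3.73-fold among themselves. HSD11B1 rose by 1.62 ± 0.39 in medium arteries (limma adjusted p = 0.0444) and by 1.42 ± 0.36 in both groups together (limma adjusted p = 0.0467), 2.67 times higher. In large arteries the difference was 1.21 ± 0.44 (limma adjusted p = 0.208). These adjusted p-values lay close to the threshold. Over both groups the call was lost in 10 of the 12 fits that left out 1 artery, all but those without medium replicate 3 or 4, with estimates of 1.25 to 1.58 and limma adjusted p-values up to 0.115. In medium against small it was lost in 10 of 12 as well, all but those without large replicate 1 or medium replicate 3, at limma adjusted p-values up to 0.0948. Probe 392105, annotated to the same transcripts, differed by 0.45 ± 0.23 (limma adjusted p = 0.292).

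The enzymes of oestrogen supply and removal were not called with all 12 arteries. CYP19A1, on its brighter probe, had 1.78 to 2.52 in arteries with medium or large plaque, against 1.96 to 2.46 in small arteries, a difference of -0.09 ± 0.14 with a 95% interval of -0.38 to 0.21 (limma adjusted p = 0.779). Its other probe was dim except in small replicate 2. STS had 6.92 to 10.7 in medium and large arteries, against 6.73 to 16.0 in small arteries, and differed by -0.40 ± 0.22, with an interval of -0.89 to 0.09 (limma adjusted p = 0.344). HSD17B2 was at or near the floor throughout. Its only probe was under the floor in all 5 medium arteries, at 0.16 to 0.25 in the 3 large arteries, and at 0.04 to 0.30 in the small arteries. Its difference in medium arteries, -0.84 ± 0.25 (limma adjusted p = 0.0949), rests on values at the floor. It was called without small replicate 4, the 1 small artery under the floor (-1.11, limma adjusted p = 0.0133), and under no other alternative but the one that also left out medium replicate 5.

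In medium against small arteries 2 of the 17 probes were called higher and 3 lower, or 29.4% in all. Of all tested probes 1.97% were called higher and 1.17% lower. In large against small arteries 1 probe was called higher, against 0.948% of all probes called higher and 0.197% lower. In both groups against small, 2 were called higher and 3 lower, against 2.66% and 1.60% of all probes. The genes were named with earlier results of these data known, so these shares describe the 17 probes and support nothing further. By role, the median difference over the brightest probes of the 4 receptors was -0.86 in both groups against small, that of the 4 enzymes was -0.24, and NRIP1 stood at 1.29. The median over all probes was -0.09, and over the brightest probe of each gene it was -0.045. The receptors ran from -1.49 to -0.32 and the enzymes from -0.40 to 1.42, with HSD17B2 at the floor on 6 arrays.

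**Figure D2:**
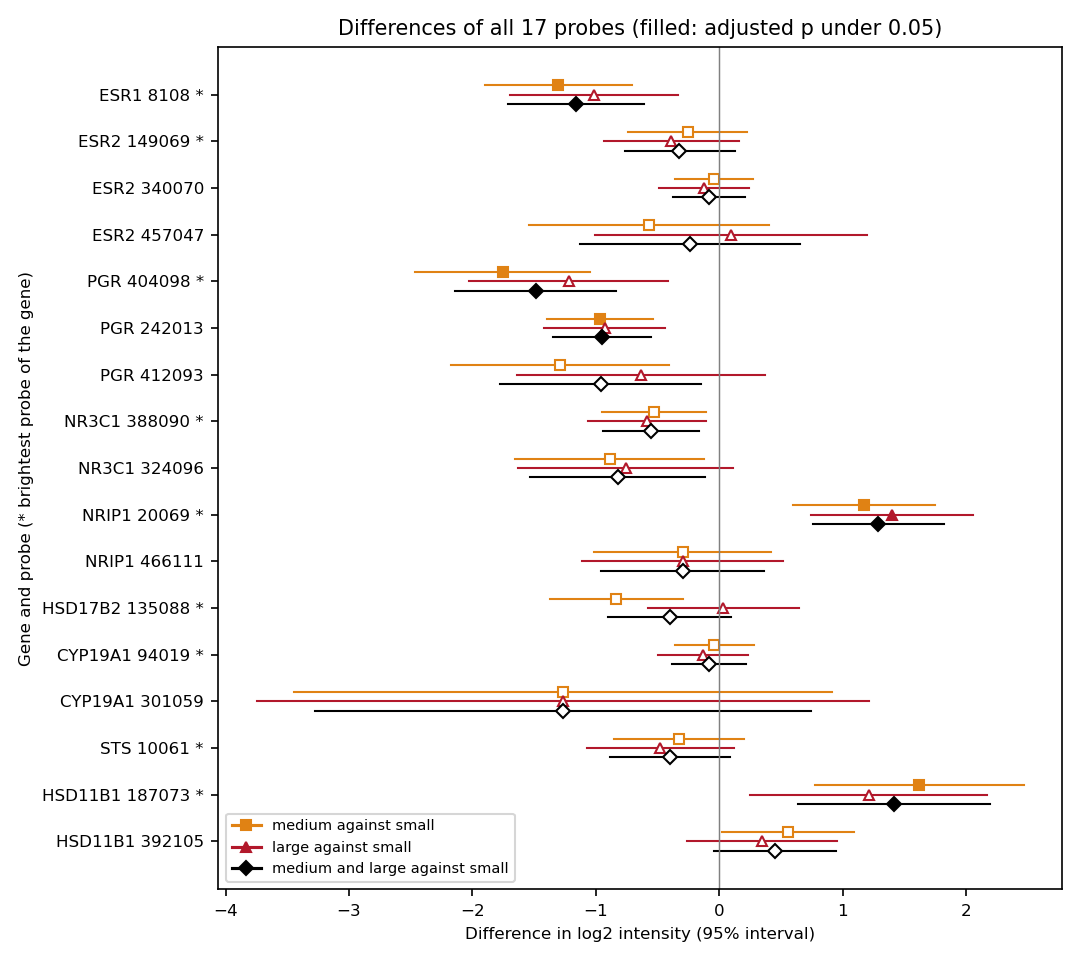
Difference in log2 intensity with its 95% interval for each of the 17 probes, in medium against small, large against small, and both together against small; filled symbols were called by limma. The calls were ESR1 at -1.16, PGR at -1.49 and -0.95, NRIP1 at 1.29 and HSD11B1 at 1.42 in both groups together.

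Large and medium arteries were then compared directly. None of the 17 probes was called by limma, as none of all probes was (0%), and 1 of the 17 had an unadjusted p under 0.05, as did 2713 of all probes. ESR1 differed by 0.29 ± 0.30 (95% interval -0.36 to 0.94), PGR by 0.54 ± 0.35 (-0.23 to 1.31; 0.07 without large replicate 2 and 0.83 without large replicate 3), NRIP1 by 0.23 ± 0.29 (-0.40 to 0.85) and HSD11B1 by -0.41 ± 0.42 (-1.33 to 0.51). These intervals are wide, so equal levels were not shown. The probe with the unadjusted p under 0.05 was that of HSD17B2, at 0.87 ± 0.27 with all medium arteries at the floor (limma adjusted p = 0.857). For ESR1 and PGR the order of group means was small, large, medium, for NRIP1 large, medium, small, and for HSD11B1 medium, large, small. Medium and large, the neighbours in each order, were not called apart by limma.

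Plaque area itself gave no call by limma among the 17 probes, against 0.483% of all probes called as rising and 0.100% as falling with area. The unadjusted p was under 0.05 for 6 of them, and for 8568 of the 53877 probes. The slope was 1.80 ± 0.38 log2 units per mm2 for NRIP1 (SE, n = 12; limma adjusted p = 0.0539), -1.90 ± 0.59 for PGR (limma adjusted p = 0.138) and -1.45 ± 0.47 for ESR1 (limma adjusted p = 0.156). Among the 8 medium and large arteries alone the slope was 0.71 ± 0.50 for NRIP1, -0.16 ± 0.93 for PGR, 0.03 ± 0.71 for ESR1 and -1.30 ± 0.87 for HSD11B1. None was called in these arteries by limma, in common with all probes (0%), and the unadjusted p was under 0.05 for HSD17B2 only, against 2962 of all probes.

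Some pairs of genes were also set side by side within each artery, as the difference of their log2 intensities. The pairs were chosen after the values were seen, so they are described without a test. ESR1 minus ESR2 averaged 2.01 ± 0.45 in the 8 medium and large arteries and 2.90 ± 0.76 in the 4 small arteries (SD). PGR minus ESR1 averaged -0.12 ± 0.45 in medium and large arteries and 0.24 ± 0.36 in small arteries, a shift of -0.36. HSD11B1 minus STS averaged -0.40 ± 0.83 in medium and large arteries and -2.24 ± 0.94 in small arteries. Levels of different probes are not comparable, and only the shift of each difference between the groups can be read. The second probe of HSD11B1 did not show the size of change of the first (0.45 against 1.42). That of NRIP1 differed from the first in sign (-0.30 against 1.29), was not called and was close to the floor on every array.

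Cell type markers moved with the same groups. The summed intensity of 10 smooth muscle markers ran from 864 to 1945 in arteries with medium or large plaque, against 2089 to 2963 in small arteries, without overlap. That of 13 macrophage markers ran from 303 to 608, against 73.9 to 139, and that of 10 endothelial markers from 74.4 to 128, against 163 to 230, both without overlap. Most of the endothelial difference lay in 1 bright probe, that of the junction gene ESAM, with 36.6 to 93.0 against 121 to 182, and the other 9 endothelial markers were not called. Sums of 9 fibroblast markers ran from 167 to 624, against 525 to 724, and overlapped, as did those of 6 adipocyte and 7 T cell markers. Among macrophage markers 9 of 13 rose in both groups against small, while CD68 (-0.55) and C1QB (-0.20) lay below 0 and were not called. CD68 had a median of 50.1 in small arteries, where the macrophage sum had a median of 110. Among smooth muscle markers 2 of 10 fell (SMTN and MYLK, with all 10 below 0), among endothelial markers 1 of 10 fell (ESAM) and among T cell markers 1 of 7 rose (CD27). No marker of any list was at the floor on all arrays. The adipocyte marker LEP was at the floor on 5 arrays, the endothelial marker KDR on 4 and the macrophage marker ITGAM on 2. LAPTM5, ACTG2, ROBO4, PI16, PCK1 and CFD were at the floor on 1 array each.

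Within the 8 arteries with medium or large plaque, ESR1 and PGR followed the smooth muscle sum. PGR on the log2 scale correlated with the log2 sum at r = 0.923 (n = 8; exact permutation p = 0.000223) and rho = 0.976 (exact p = 0.000397), and r was 0.941 without medium replicate 4 and large replicate 2. For ESR1, r was 0.888 (exact p = 0.000372), rho was 0.929 (exact p = 0.00223), and r was 0.865 without the same 2 arteries. Over the 16 relations computed between 4 genes and 4 marker lists, the adjusted exact p for r was 0.00298 in both cases. Of all probes with 12 values, 0.422% had an r of at least this size with the smooth muscle sum for PGR, and 1% for ESR1. The mean log2 level of the markers gave r = 0.929 for PGR and 0.897 for ESR1. PGR was also related to the macrophage sum, at r = -0.855 and rho = -0.929 (exact p = 0.00528 and 0.00223, adjusted 0.0211 and 0.00892), and to the endothelial sum, at r = 0.899 and rho = 0.952 (exact p = 0.000967 and 0.00114, adjusted 0.00516 and 0.00892). With the mean log2 level of endothelial markers that r was 0.49. For ESR1 the endothelial sum gave r = 0.789 (exact p = 0.0117, adjusted 0.0374) and rho = 0.786 (exact p = 0.0279, adjusted 0.0744). That r was 0.503 without medium replicates 1 and 4, and 0.272 with the mean log2 level of the markers. The macrophage sum gave r = -0.696 (exact p = 0.0541, adjusted 0.144) and rho = -0.881 (exact p = 0.00724, adjusted 0.0232) for ESR1, and that r was -0.58 without medium replicate 2 and large replicate 2. Across the 8 arteries the smooth muscle and endothelial sums ran in nearly the same order, and the macrophage sum in nearly the reverse. The relations of each gene with these sums are therefore not separate. An r of at least PGR's size was found for 1.16% of all probes with the macrophage sum and 0.493% with the endothelial sum. For ESR1 these shares were 6.72% and 3.2%. All these relations were looked for after the values were seen, and the part of cell composition in the falls of ESR1 and PGR was not tested.

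For NRIP1 and HSD11B1 no relation with a marker sum passed within these 8 arteries. Against the macrophage sum NRIP1 had r = 0.402 (n = 8; exact permutation p = 0.309) and rho = 0.333 (exact p = 0.428), and HSD11B1 had r = 0.189 (exact p = 0.644) and rho = 0.095 (exact p = 0.84). With the mean log2 level of macrophage markers r was 0.699 for NRIP1 and 0.162 for HSD11B1. For HSD11B1, r with the macrophage sum was 0.804 without medium replicate 2 and large replicate 2, so these 2 arteries decided its value. The fibroblast sum behaved alike, with r = 0.346 for HSD11B1, and 0.873 without medium replicate 4 and large replicate 1. With endothelial markers r was -0.4 for their sum and -0.766 for their mean log2 level. All adjusted exact p-values for r of both genes with the 4 marker lists were 0.311 or more. The macrophage sum was nonetheless higher in every medium or large artery than in any small one, and its part in the rises of NRIP1 and HSD11B1 was not tested.

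**Figure D3:**
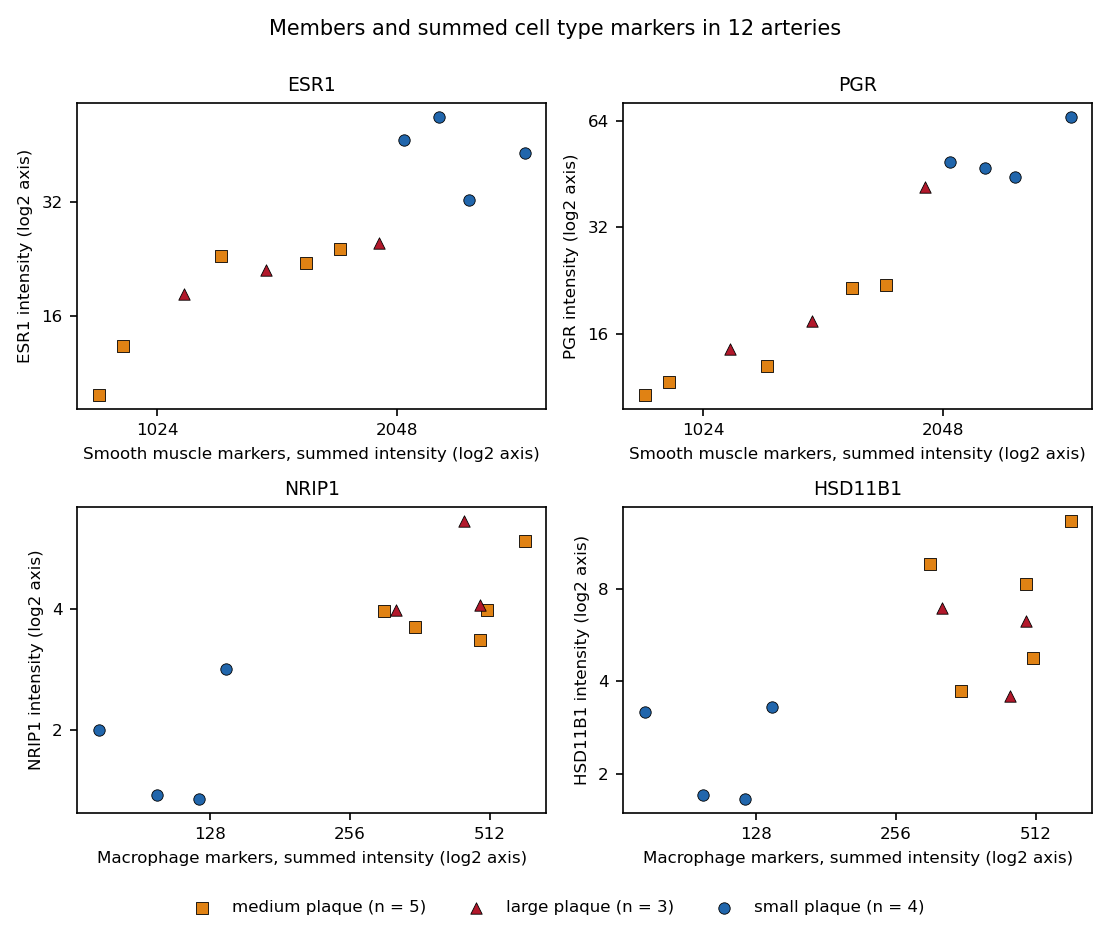
Intensity of ESR1 and PGR against the summed intensity of 10 smooth muscle markers, and of NRIP1 and HSD11B1 against that of 13 macrophage markers, 1 point per artery on log2 axes. Within the 8 arteries with medium or large plaque, ESR1 and PGR rise along the smooth muscle sum (r = 0.888 and 0.923), whereas NRIP1 and HSD11B1 have r = 0.402 and 0.189 with the macrophage sum.

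Among each other, 28 pairs of the 8 genes whose brightest probe was above the floor on every array were correlated within the same 8 arteries. No pair passed after adjustment. ESR1 and PGR had r = 0.716 (n = 8; exact permutation p = 0.0469, adjusted 0.438) and rho = 0.857 (exact p = 0.0107, adjusted 0.203), with r = 0.633 without medium replicates 4 and 1. HSD11B1 and NR3C1, the enzyme that makes active glucocorticoid and its receptor, had r = -0.812 (exact p = 0.0157, adjusted 0.22) and rho = -0.81 (exact p = 0.0218, adjusted 0.203), with r = -0.893 without medium replicates 3 and 4. The highest r was that of NR3C1 and STS, at 0.893 (exact p = 0.00702, adjusted 0.197) with rho = 0.714 (exact p = 0.0576, adjusted 0.403), and it was 0.471 without the same 2 arteries. NR3C1 and CYP19A1 had r = 0.675 (exact p = 0.0693, adjusted 0.459) and rho = 0.833 (exact p = 0.0154, adjusted 0.203).

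Other genes of the steroid pathway were taken from lists written with earlier results of these data known, with the brightest probe of each gene. Over the 18080 genes with such a probe, 4.89% were called higher and 2.05% lower in both groups against small, and the median was -0.05. Of 8 other receptor genes measured, 1 rose and 1 fell, with a median of -0.01. PAQR8, which encodes a membrane progesterone receptor, had 9.48, 7.41, 5.57, 6.10 and 8.15 in medium arteries and 15.5, 4.78 and 7.12 in large arteries, against 1.77, 1.22, 1.06 and 1.39 in small arteries. It rose by 2.51 ± 0.28 (limma adjusted p = 0.000659) on its only probe, was called in medium and in large arteries separately, and kept its call under all 21 alternatives. Every medium or large artery lay above every small one. NR3C2, the mineralocorticoid receptor, had 6.63 to 19.5 in arteries with medium or large plaque, against 19.9 to 40.6 in small arteries, and fell by 1.30 ± 0.32 (limma adjusted p = 0.0403). Its call was lost under 11 of 21 alternatives, 8 of which left out 1 artery (large replicates 1 and 3, medium replicates 1, 4 and 5, small replicates 1, 2 and 4; limma adjusted p 0.0557 to 0.109).

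Of 19 other cofactors and receptor chaperones measured, 1 rose and 2 fell, with a median of 0.20. NCOA4, a receptor coactivator that also delivers ferritin for breakdown, rose by 0.97 ± 0.22 (limma adjusted p = 0.0318). RBFOX2, a splicing factor listed for its binding to oestrogen receptor, fell by 1.08 ± 0.25 (limma adjusted p = 0.0351), and NCOA2, a p160 coactivator, fell by 0.68 ± 0.17 (limma adjusted p = 0.0468). The dimmer probes of RBFOX2 and NCOA2 stood at 0.83 and 0.43, of opposite sign and not called. The calls of NCOA4, RBFOX2 and NCOA2 were lost in 6, 8 and 10 of the 12 fits without 1 artery.

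Of 33 other enzymes and carriers measured, 2 rose and none fell by limma, with a median of -0.01. At an unadjusted p under 0.05, 3 were higher and 1 lower. CYP1B1, which hydroxylates oestradiol, had 2.56 to 13.6 in arteries with medium or large plaque, against 0.63 to 2.08 in small arteries. It rose by 2.05 ± 0.42 (limma adjusted p = 0.0211), and its call was lost without large replicate 1 or small replicate 3 or 4 (limma adjusted p 0.053 to 0.0562). HSD17B14, a steroid dehydrogenase able to oxidise oestradiol, had 1.85 to 3.87 in medium and large arteries, against 1.01 to 1.25 in small arteries. It rose by 1.25 ± 0.21 (limma adjusted p = 0.0076), in medium and in large arteries separately as well, and was called under all 21 alternatives, whereas a dim second probe stood at -0.14. HSD11B2, which inactivates cortisol, was dim and differed by 0.12 ± 0.28 (limma adjusted p = 0.855).

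Of 17 genes known as oestrogen targets in breast or other oestrogen-responsive cells, 3 rose and none fell by limma, with a median of 0.02. This list leaves out PGR, itself induced by oestrogen but listed as a receptor, which fell by 1.49 (limma adjusted p = 0.0186). Within the list GREB1 was at the floor on 2 arrays, and TFF1 and PDZK1 on 1 each. At an unadjusted p under 0.05, 6 of the 17 were higher and 2 lower, against 10790 of the 53877 probes in either direction. The 3 called genes were CTSD, a lysosomal protease, at 2.72 ± 0.47 (limma adjusted p = 0.00886), CA12, a carbonic anhydrase, at 2.45 ± 0.39 (limma adjusted p = 0.00591), and the scaffold gene PDZK1 at 0.98 ± 0.24 (limma adjusted p = 0.0432). CTSD was called in large arteries, at 3.62 (limma adjusted p = 0.0128), and stood at 1.82 in medium arteries (limma adjusted p = 0.0782), while large against medium arteries called no probe at all. The 2 other probes of CA12 stood at 0.05 and 0.28 and were not called. They were not dim, with geometric mean intensities of 5.2 and 2.24, against 8.04 for the called probe. PDZK1 was dim, its call lost in 9 of the 12 fits without 1 artery. Of 15 glucocorticoid targets none was called by limma in both groups against small, with a median of 0.58. At an unadjusted p under 0.05, 7 of them were higher and 1 lower, and 10790 of the 53877 probes passed that limit in either direction. TSC22D3, a glucocorticoid-induced leucine zipper, stood at 0.91 ± 0.24 (limma adjusted p = 0.0568) and FKBP5, a chaperone induced through the same receptor, at 0.19 ± 0.38 (limma adjusted p = 0.827). ZBTB16, another such target, fell in medium against small arteries by 1.69 ± 0.41 (limma adjusted p = 0.0457). That call was kept under only 9 of 22 alternatives. It was lost without large replicate 1, medium replicate 1, 2, 4 or 5, or small replicate 1, 2 or 3.

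**Figure D4:**
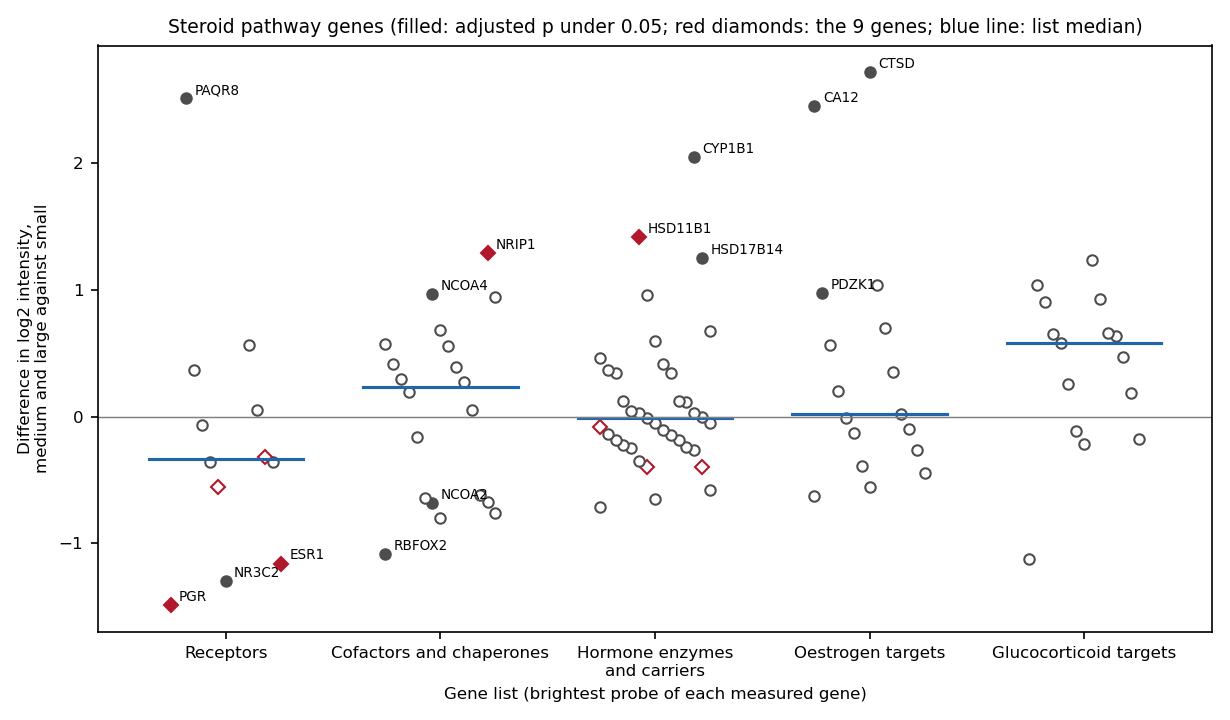
Difference in log2 intensity of medium and large against small arteries for the brightest probe of each measured gene in 5 steroid pathway lists, with called genes filled and named, the 9 genes as diamonds and the list median, the 9 genes included, as a blue line. ESR1, PGR and NR3C2 lie lowest among receptors and PAQR8 highest, at 2.51.

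For the 4 genes with a called probe, the genes of most like pattern over the 12 arteries were sought among the 15223 other genes whose brightest probe was above the floor on every array. Likeness was Pearson's r of log2 intensity, given as a description. For ESR1 they were BICRAL (r = 0.979), RAVER2 (0.975), which encodes an RNA-binding protein, and CCDC50 (0.971). For PGR they were MEPE (0.979), RIMKLB (0.978) and RCAN2 (0.975), a regulator of calcineurin. For NRIP1 they were BCL10 (0.974), an adaptor of immune receptor signalling, GIMAP2 (0.971) and CTSK (0.964), the collagen-cleaving protease cathepsin K. For HSD11B1 they were the chemokine gene CCL8 (0.912), OLR1 (0.904), a receptor for oxidised lipoprotein, and MELK (0.885), a kinase of dividing cells. In both groups against small CCL8 rose by 2.49 ± 0.43 and OLR1 by 1.79 ± 0.32, while RCAN2 fell by 1.56 ± 0.29. MEPE, the closest to PGR, differed by only -0.33 ± 0.13. The genes were picked for likeness over the same 12 arteries. Their differences between groups therefore follow in part from that choice and are given without a test.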

How the data were processed

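Total RNA of 12 iliac arteries was amplified to biotinylated cRNA and hybridized to single-colour CodeLink arrays of human probes, per the labels' protocols. The deposited intensity values are linear, and the authors had scaled each array to a median near 1, as the values show. Some are below 0, as after background subtraction. Neither image software nor background or scaling method was stated in the sources at hand. Gene symbols came from the platform annotation, and all 9 also appear in a RefSeq gene table of Macaca fascicularis, used for names only.

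Of 54359 probes, the 53877 with values in at least 2 arteries of each group entered limma (release 3.58.1, under R 4.3.3), by group means over 12 arrays and by a slope on plaque area. The floor of 0.111 touched 5.45% of values. The fits were tested on simulated data. A gene was represented by its brightest probe with 12 values; all probes of the 9 genes are described, and other genes were named if called or among the 3 of most like pattern to a called one of the 9, plus FKBP5, TSC22D3 and HSD11B2. The 9 genes, the lists and the comparison of both groups with small arteries were chosen with earlier results of these data known. Alternatives covered normalization, floor, filters, variance model, array weights, samples, replicate numbers and each artery left out. The number of arrays limits the precision.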

Additional observations from a re-analysis of the deposited data

Results flagged for a closer look

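In 2 of the 34 sets of values (17 probes in the medium and in the small group), 1 artery lay far from the others of its group. By chance about 1 in 20 such sets does. The set of HSD17B2 in medium arteries, with all 5 values at the floor, could not be tested. For CYP19A1, the dim probe 301059 had an intensity of 7.94 in small replicate 2, against 0.128 to 0.247 in the other small arteries, while the brighter aromatase probe was at 2.45 in that artery and 1.96 to 2.46 over the group. For ESR2, the dim probe 457047 had 0.297 in medium replicate 3, with the other 4 medium arteries under the floor, between -0.053 and 0.089. Since those 4 share the floor value, any value above it would stand apart here, and the chance rate does not apply.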

How the results depend on the processing

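Over 1516 recomputed differences of the 9 genes and the other named pathway genes, 33 changed sign, none of them of a called value. In medium against small, 5 probes were called; the count was 3 with quantile normalization, 2 with only the 2 groups in the fit, 1 without small replicate 4 and medium replicate 5, whose animal numbers are far from the rest (HSD17B2, not among those 5, at limma adjusted p = 0.0326, while ESR1, PGR, NRIP1 and HSD11B1 stood at 0.0724, 0.0685, 0.102 and 0.162), and 1 to 5 without 1 artery. Of the 5 called in both groups against small, 3 were called with quantile normalization, 0 without those 2 animals (limma adjusted p 0.0681 for ESR1, 0.064 for PGR, 0.0537 for NRIP1 and 0.147 for HSD11B1) and 1 to 5 without 1 artery. In large against small the count of 1 became 0 with quantile normalization, without those 2 animals or with only the 2 groups, and 2 with log2(value + 0.5), brighter probes only, eBayes with trend and robust, or array weights, and was 0 to 2 without 1 artery. For the slope on area the count of 0 became 1 with the higher floor, with log2(value + 0.5) or with trend and robust, 2 with brighter probes only, 3 with the square root of area, and was 0 to 1 without 1 artery. Counts in large against medium, and for the slope among medium and large, were 0 throughout. The causes of these shifts were not tested, beyond the smaller number of arteries or probes where that is the alternative. A pairing of arteries by replicate number was neither shown nor excluded. The correlation of their deviations from group means was over 0.1 in 4 of 10 pairs of equal number (-0.159 to 0.216). Pairs of unlike number from different groups ran from -0.203 to 0.228. Among arteries of the other groups, 6 of 12 arteries correlated best with their own number. With the replicate number as a block the counts were 2 in medium against small, where the calls of the brightest PGR and HSD11B1 probes were lost, 4 in both groups against small and 1 in large against small.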
